A study of Mus musculus with 6 samples.

Results

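Vitamin A is handled in the liver by a small set of carriers and enzymes, of which 9 genes are described here: Rbp4, Lrat, Retsat, Rdh10, Rdh16, Rdh7, Dhrs3, Aldh1a1 and Aldh1a7. They were taken by name, as the genes of retinol carriage, storage, saturation and oxidation, and all 9 were found among the 39179 gene identifiers of each library and passed the filter on low counts. The set was chosen on the NASH against steatosis counts of these same libraries, in which Retsat and Aldh1a1 already stood out, so the differences of the 9 genes in that comparison are given as a description, without p-values.

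Hepatocytes take up dietary retinol and pass it to the hepatic stellate cells, where lecithin retinol acyltransferase (Lrat) stores it as retinyl ester, or send it into the blood bound to retinol-binding protein (Rbp4) and transthyretin (Ttr). Retinol is oxidised to retinal by retinol dehydrogenases and then to retinoic acid by retinal dehydrogenases, and retinoic acid drives transcription through the receptors RAR and RXR. Retsat (retinol saturase) makes dihydroretinol from retinol and so opens a side branch.

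Gene counts came from the livers of C57BL/6J mice kept on a high-fat diet, in which fat gave 60% of the calories, for 21 weeks from an age of 5 weeks. Histology of liver biopsies after staining with haematoxylin and eosin sorted the animals into isolated steatosis (fat storage alone) and nonalcoholic steatohepatitis (NASH, in which inflammation and cell injury are added), and 3 livers of each class, picked at random, were sequenced. The classes are outcomes on 1 diet and not treatments, and no lean liver was analysed here. The labels imply but do not state that each library is a separate mouse, so p-values measure the spread between these libraries. Libraries held 13909238 to 18002095 counts, of which 62.0% to 83.9% were from mitochondrially encoded genes. Loci with rRNA-like sequence took 22.3% of NASH 3 and 8.96% of steatosis 2 but 0.596% to 1.06% of the others. All other genes were left with 3378730 to 5149189 counts per library in steatosis and 2185922 to 2719869 in NASH, without overlap. The part of this difference in depth in the comparison of the groups was not tested. Hepatocyte markers were abundant in all libraries (summed level of 7 genes 10946 to 12121 in steatosis and 9126 to 11522 in NASH, in counts of every 1000000 of the scaled library size, CPM), and 0 of the 7 passed edgeR's test, an unadjusted p under 0.05, DESeq2 or limma-voom.

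The 9 genes lie on 6 chromosomes, and 2 pairs are close relatives that sit side by side (GRCm38, GENCODE M21). Aldh1a1 (ENSMUSG00000053279, chr19:20492715-20643465, plus strand) and Aldh1a7 (ENSMUSG00000024747, chr19:20692953-20727562, minus strand) are 49.5 kb apart, and their coding sequences are 91.9% identical. Rdh16 (ENSMUSG00000069456, chr10:127801152-127846565, plus strand) and Rdh7 (ENSMUSG00000040134, chr10:127884028-127888817, minus strand) are 37.5 kb apart and 87.8% identical. Rbp4 (ENSMUSG00000024990) is at chr19:38116629-38125281, Retsat (ENSMUSG00000056666) at chr6:72598475-72608425, Lrat (ENSMUSG00000028003) at chr3:82892579-82903973, Rdh10 (ENSMUSG00000025921) at chr1:16105774-16133734 and Dhrs3 (ENSMUSG00000066026) at chr4:144892827-144928209.

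The promoters of the Aldh1a pair are shown because the genes share sequence up to the start site and had unequal differences between the groups. Each window runs from 250 bases before to 50 bases after a RefSeq start site (GRCm38.p6), 5′ to 3′ on the strand of the gene, at chr19:20601718-20602017 for Aldh1a1 (plus strand) and chr19:20727507-20727806 for Aldh1a7 (minus strand). Capitals mark the longest run that both hold.

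Aldh1a1: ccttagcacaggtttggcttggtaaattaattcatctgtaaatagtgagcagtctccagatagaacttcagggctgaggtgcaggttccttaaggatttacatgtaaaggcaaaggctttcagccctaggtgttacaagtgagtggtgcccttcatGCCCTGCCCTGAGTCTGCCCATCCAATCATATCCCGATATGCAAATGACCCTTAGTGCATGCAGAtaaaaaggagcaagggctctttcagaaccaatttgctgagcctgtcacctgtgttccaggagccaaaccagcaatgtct
Aldh1a7: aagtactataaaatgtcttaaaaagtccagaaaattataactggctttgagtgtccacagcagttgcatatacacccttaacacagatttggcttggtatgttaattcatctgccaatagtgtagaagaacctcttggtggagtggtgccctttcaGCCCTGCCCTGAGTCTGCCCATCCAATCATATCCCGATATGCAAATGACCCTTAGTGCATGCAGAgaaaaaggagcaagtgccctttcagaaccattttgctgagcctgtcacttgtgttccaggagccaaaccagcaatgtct

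The shared run is 65 bases long and starts 94 bases before the start site in both windows. Of the last 150 bases of the windows 142 are the same, and over 282 aligned bases 79.4% are the same. A further RefSeq start site of Aldh1a1 (chr19:20492333-20492632) has a window that shares no run over 8 bases with that of Aldh1a7.

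The windows of Retsat (chr6:72598352-72598651, plus strand) and Rbp4 (chr19:38124762-38125061, minus strand, 1 of 2 RefSeq windows) are shown as those of the other 2 genes that the genome-wide test called lower. Capitals mark TATAAA, the core of a TATA box.

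Retsat: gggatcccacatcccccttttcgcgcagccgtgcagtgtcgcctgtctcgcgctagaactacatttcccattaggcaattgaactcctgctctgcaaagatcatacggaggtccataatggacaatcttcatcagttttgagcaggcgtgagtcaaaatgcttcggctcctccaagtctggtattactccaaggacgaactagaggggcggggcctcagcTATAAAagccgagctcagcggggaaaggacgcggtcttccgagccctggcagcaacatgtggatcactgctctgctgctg
Rbp4: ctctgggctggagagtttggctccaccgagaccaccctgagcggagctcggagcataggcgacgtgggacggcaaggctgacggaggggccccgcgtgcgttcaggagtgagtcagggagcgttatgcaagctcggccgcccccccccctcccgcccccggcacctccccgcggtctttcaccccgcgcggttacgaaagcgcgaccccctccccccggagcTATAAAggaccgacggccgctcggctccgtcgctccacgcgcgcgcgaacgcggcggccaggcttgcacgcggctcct

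TATAAA starts 30 bases before the RefSeq start site in Retsat and 28 bases before that of the window shown in Rbp4. The other Rbp4 window holds no TATAAA. In GENCODE both genes begin upstream of the TATAAA shown, at chr6:72598475 for Retsat and chr19:38125281 for Rbp4. TATAAA is in 4 of 13 windows of the genes described here (Retsat, Rbp4, Aldh1a7 and Rdh16) and in 8.32% of 32851 RefSeq windows, read on the strand of the gene. Both shares count TATAAA anywhere in a window, and it starts at -244 from the start site in Aldh1a7 and at -82 in Rdh16. Retinoic acid receptors bind direct repeats of a hexamer. The letters AGGTCA were searched, together with the spelling AGTTCA, the spelling GGGTCA and the spelling GGTTCA, on both strands. Direct repeats of any of these hexamers, spaced by 1, 2 or 5 bases, were in 0 of the 13 windows and in 0.588% of all windows. At so low a share 0 of 13 would be usual for any genes, so nothing is read from it about receptor sites. A single copy of these hexamers was in 7 of 13 windows and in 43.7% of all windows. In Aldh1a1 and Aldh1a7 it was GGGTCA on the reverse strand, 49 bases before the start site of each and inside the shared run. RefSeq windows were matched for 8 of the 9 genes, not for Rdh10.

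Per kilobase of exon, Rbp4 was the most abundant of the 9 transcripts and Lrat the least. In steatosis the mean level was 328 ± 59.3 CPM per kb for Rbp4, 118 ± 13.0 for Rdh7, 50.6 ± 4.50 for Aldh1a1 and 19.2 ± 6.86 for Retsat (SD, n = 3). Aldh1a7, Dhrs3 and Rdh16 followed at 10.7 ± 1.31, 10.4 ± 1.24 and 9.90 ± 6.05 CPM per kb, with overlapping libraries. Rdh10 at 0.620 ± 0.134 and Lrat at 0.266 ± 0.107 CPM per kb came last and did not overlap each other. In NASH the order of levels began in the same way, with Rbp4 at 159 ± 29.0, Rdh7 at 106 ± 12.6 and Aldh1a1 at 13.4 ± 3.03 CPM per kb, but Retsat stood at rank 7 with 2.73 ± 0.545 CPM per kb, against rank 4 in steatosis. Aldh1a1, Dhrs3 (10.8 ± 2.64) and Aldh1a7 (7.89 ± 1.62) were neighbours in NASH whose libraries overlapped. Rdh16 (4.22 ± 0.787 CPM per kb) lay above Retsat there with no overlap. The length used is that of all annotated exons of a gene merged, 6217 bases for Rdh16, 4937 for Aldh1a1 and 2066 for Aldh1a7. The order of genes therefore depends on the annotation, and a long annotated length lowers the level per kb.

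**Figure D1:**
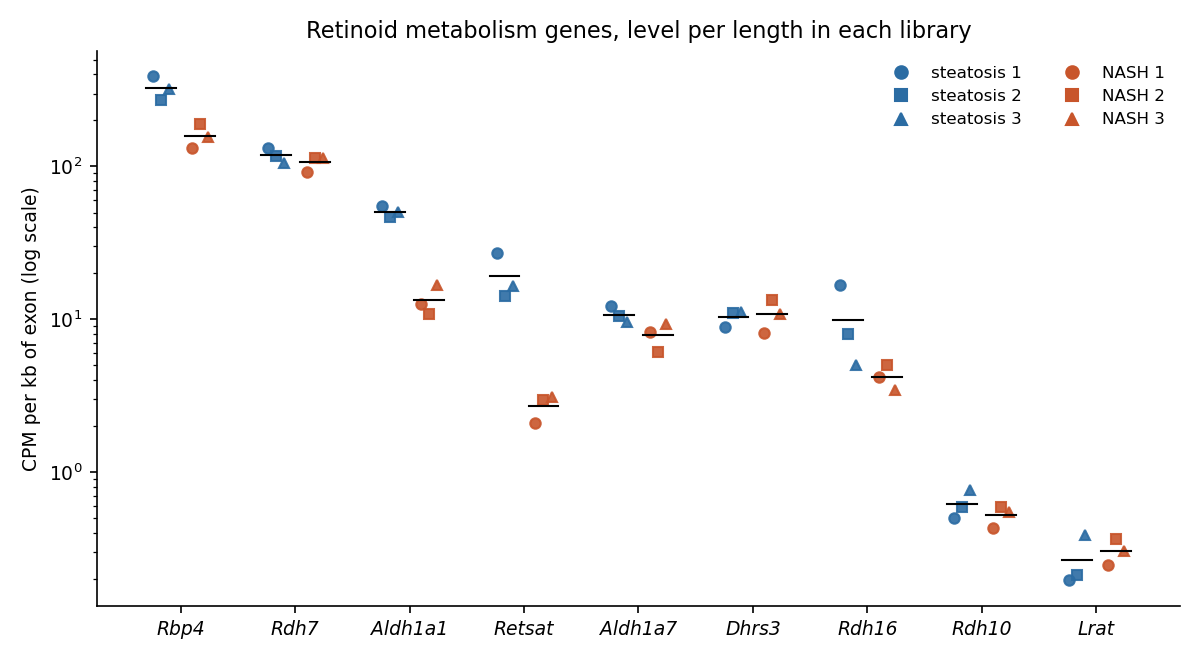
Level of each of the 9 genes in each library, in CPM per kilobase of exon on a log axis, with steatosis in blue, NASH in orange, symbols for replicates and bars for means of 3. Retsat went from a mean of 19.2 to 2.73 CPM per kb, while Rdh7, Dhrs3, Rdh10 and Lrat overlapped between the groups.

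Between the groups, Retsat, Aldh1a1 and Rbp4 lay lower in NASH, and the genome-wide edgeR test (Benjamini-Hochberg adjusted p under 0.05) called these 3 of the 9 genes, all in the lower direction. Of all 11375 tested genes 3.33% were called lower, 1.49% higher and 4.82% in either direction; since the set was chosen on this contrast, nothing is read from its count. All NASH libraries lay below all steatosis libraries for 4 of the 9, the fourth being Aldh1a7, and for 16.2% of all tested genes. They lay above all steatosis libraries for 0 of the 9 and for 13.1% of all genes, so the groups did not overlap for 29.3% of all genes. The median log2 fold change of the 9 was -0.44, against 0.01 over all tested genes. In the 4 libraries with few rRNA-like reads the log2 fold change was -3.09 for Retsat, -2.16 for Aldh1a1 and -1.15 for Rbp4. These are bulk samples, in which fewer cells of a type and less RNA per cell cannot be told apart.

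Among carrier genes, Rbp4, whose product carries retinol out of hepatocytes, was measured at 525, 367 and 429.7 CPM in steatosis 1, 2 and 3 and at 176, 254 and 209 CPM in NASH 1, 2 and 3. The groups did not overlap, with steatosis 1 the highest library and NASH 1 the lowest. The mean level was 441 ± 79.7 CPM in steatosis and 213 ± 39.0 CPM in NASH (SD, n = 3 each), and the log2 fold change was -1.05 (SE 0.25). That call rested on all 6 libraries, since it was lost without any 1 of them, where the log2 fold change ran from -1.17 to -0.89. Rbp4 is also secreted by fat cells, and the fat cell genes Adipoq, Lep and Plin1 had 0 counts in every library, which allows up to 0.0299 CPM over the 6 libraries together. Of the 6 listed fat cell markers 2 were tested and 0 passed by edgeR, DESeq2 or limma-voom (1 at an unadjusted p under 0.05), and the sum over the list, mostly Cfd, was 42.5 to 134 CPM in steatosis and 19.7 to 48.6 CPM in NASH. Ttr, the partner of Rbp4 in plasma, had 1215 ± 232 CPM in steatosis and 836 ± 31.9 CPM in NASH (SD, n = 3 each) and did not pass, with a log2 fold change of -0.54 and SE of 0.26 (edgeR, adjusted p = 0.237). Inside a library, the ratio of Rbp4 to Ttr counts was 0.390, 0.271 and 0.454 in steatosis and 0.206, 0.318 and 0.246 in NASH, and these ranges overlapped.

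For storage, Lrat was close to the limit of these libraries, with 17, 19 and 56 counts in steatosis and 19, 29 and 18 counts in NASH. On the CPM scale these were 1.05, 1.14 and 2.08 in steatosis against 1.32, 1.94 and 1.63 in NASH, with overlapping groups. The log2 fold change was 0.16 (SE 0.35), and without steatosis 3, the highest library, it was 0.60. Lrat is a defining gene of quiescent stellate cells. Of the 16 listed markers of these cells, Lrat included, 12 were tested, with a median log2 fold change of -0.10. Of these 1 was called lower (Dcn, named after its value was seen) and 0 higher, against 3.33% and 1.49% of all tested genes. The Dcn call did not outlast the removal of any library (edgeR, adjusted p = 0.0584 to 0.115). The summed level of the 16 markers was 116 to 141 CPM in steatosis and 107 to 121 CPM in NASH, and Gfap had 5 counts in all. The part of stellate cell content in these values was not tested.

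For saturation, Retsat was measured at 95.5, 50.2 and 58.1 CPM in steatosis 1, 2 and 3 and at 7.43, 10.5 and 11.0 CPM in NASH 1, 2 and 3. The highest NASH library was far below the lowest steatosis library. Mean levels were 67.9 ± 24.2 and 9.64 ± 1.93 CPM (SD, n = 3 each), a log2 fold change of -2.82 (SE 0.30), or 7.04-fold lower. No other of the 9 genes had as large a difference. It was -2.48 without steatosis 1, the highest library, and between -2.48 and -2.99 over the 6 fits that left out 1 library.

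The exons of Retsat share 650 bases with Gm45053, a gene on the opposite strand that was not among the counted identifiers. Its neighbours on either side lie on the opposite strand, Tgoln1, a trans-Golgi protein gene, 7 bases away and Elmod3 62 bases away. Tgoln1 fell from 19.5 ± 2.49 to 8.95 ± 3.46 CPM (SD, n = 3 each), a log2 fold change of -1.13 and SE of 0.26 (edgeR, adjusted p = 0.0383). That call was lost without steatosis 1, 2 or 3 (edgeR, adjusted p = 0.137, 0.0918 and 0.0686) and without NASH 1 or 2 (0.107 and 0.123). Elmod3 had 18.2 ± 7.19 CPM in steatosis and 8.16 ± 3.0 CPM in NASH (SD, n = 3 each) but did not pass, with a log2 fold change of -1.16 and SE of 0.33 (edgeR, adjusted p = 0.0724). DESeq2 called it (adjusted p = 0.0206), and so did edgeR with no filter. The other tested genes within 100 kb of Retsat, Capg, Tcf7l1 and Gm15401, had log2 fold changes of -0.58, 0.42 and 0.72 and did not pass (edgeR, adjusted p = 0.432, 0.41 and 0.439). How the counting treated strand is unknown here, so reads that cross from a gene into its neighbour on the opposite strand cannot be assigned to either.

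Of the genes for the conversion between retinol and retinal, all 4 described here (Rdh10, Dhrs3, Rdh7 and Rdh16) had ranges that overlapped between the groups. Rdh10, the membrane dehydrogenase that makes retinal in embryos, had 2.09, 2.46 and 3.19 CPM in steatosis and 1.81, 2.48 and 2.27 CPM in NASH, from 25 to 86 counts per library (log2 fold change -0.26, SE 0.27). Dhrs3, which reduces retinal back to retinol, had 26.2, 32.2 and 32.8 CPM in steatosis and 23.8, 39.3 and 31.6 CPM in NASH, with a log2 fold change of 0.05 (SE 0.23). Both pairs of ranges overlapped. The sign of the Dhrs3 difference turned without NASH 2 (-0.12) and without steatosis 1 (-0.03), and scaled to the counts of other genes it was 0.16. Within 100 kb of Rdh10, the ribosomal protein gene Rpl7 (1.1 kb away, opposite strand) fell from 13.3 ± 0.729 to 5.97 ± 0.888 CPM (SD, n = 3 each), a log2 fold change of -1.15 and SE of 0.19 (edgeR, adjusted p = 0.0128). Leaving out steatosis 1 or 2 ended that call (0.053 and 0.0552).

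Rdh16 and Rdh7 are microsomal dehydrogenases that act on retinol and on steroids. Rdh7 had 221, 198 and 177 CPM in steatosis and 154, 190.4 and 191 CPM in NASH, with overlapping groups and a log2 fold change of -0.15 (SE 0.22). Rdh16 had 104, 49.9 and 31.1 CPM in steatosis and 26.1, 31.2 and 21.4 CPM in NASH. The groups overlapped only where NASH 2 lay just above steatosis 3, and the steatosis libraries differed among themselves by more than those of any other of the 9 genes (coefficient of variation 61.1%). The log2 fold change of Rdh16 was -1.23 (SE 0.38), -0.61 without steatosis 1 and -1.53 without steatosis 3. Rdh16 was not called by edgeR with all libraries, and it was called without steatosis 3, with no filter on low counts and by DESeq2.

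Read sharing limits the values of this family. Rdh16 and Rdh9, 8.5 kb apart, are 96.3% identical over their coding sequence and share a run of 229 bases, and 2.62% of the 150-base windows of the Rdh16 transcript are also in Rdh9. Rdh9 itself had 51 counts over the steatosis libraries and 25 over the NASH libraries, few beside the 3353 and 1077 of Rdh16. The longest run shared by Rdh16 and Rdh7 is 71 bases, under the read length of 150 bases, and Rdh16 shares 381 exon bases with the pseudogene Rdh18-ps, which had 7 counts in all. The ratio of Rdh16 to Rdh7 counts, which is free of library scaling, was 0.470, 0.252 and 0.176 in steatosis and 0.169, 0.164 and 0.112 in NASH, so the groups did not overlap but nearly touched.

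For oxidation of retinal to retinoic acid, Aldh1a1, the main cytosolic retinal dehydrogenase of adult liver, was measured at 273, 229 and 247 CPM in steatosis 1, 2 and 3 and at 62.7, 53.5 and 82.7 CPM in NASH 1, 2 and 3. The groups were far apart and the steatosis libraries close together (coefficient of variation 8.88%). Mean levels were 249.9 ± 22.2 and 66.3 ± 14.9 CPM (SD, n = 3 each), a log2 fold change of -1.91 (SE 0.25), or 3.77-fold lower. With 1 library left out it ran from -2.10 to -1.76.

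Its relative Aldh1a7, not known as an efficient retinal dehydrogenase, had 25.1, 21.8 and 19.7 CPM in steatosis and 17.0, 12.7 and 19.2 CPM in NASH. The groups nearly touched, and the log2 fold change of -0.44 (SE 0.21) was not called. Inside each library the ratio of Aldh1a1 to Aldh1a7 counts was 10.9, 10.5 and 12.5 in steatosis and 3.68, 4.23 and 4.30 in NASH, with means of 11.3 ± 1.07 and 4.07 ± 0.337 (SD, n = 3 each). This ratio does not depend on how libraries are scaled. The transcripts share no run over 100 bases, and 0% of the 150-base windows of Aldh1a1 are in Aldh1a7.

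**Figure D2:**
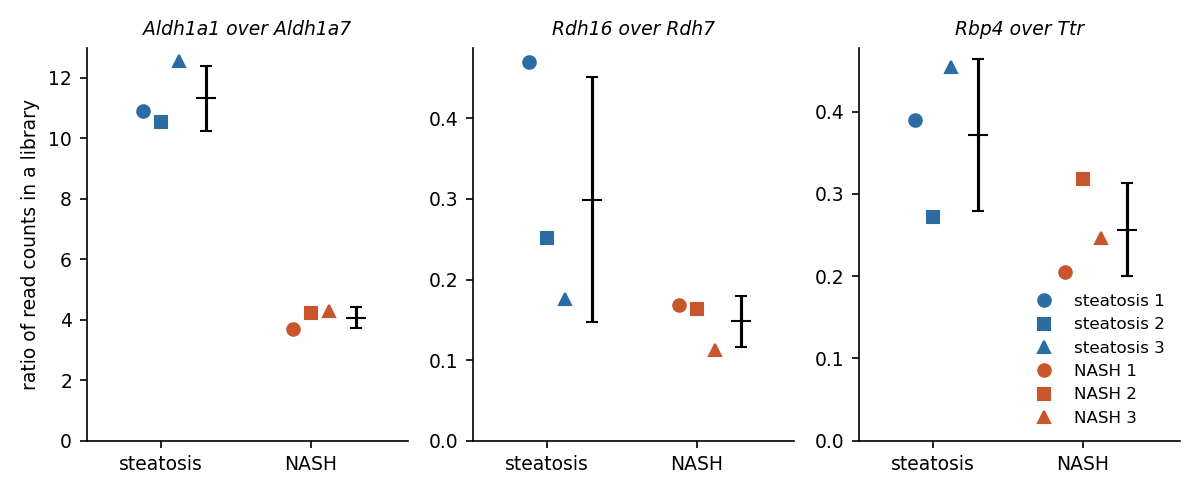
Ratio of read counts inside each library for Aldh1a1 over Aldh1a7, Rdh16 over Rdh7 and Rbp4 over Ttr, with steatosis in blue, NASH in orange and the mean with SD of 3 libraries in black. The Aldh1a1 ratio lay at 10.5 to 12.5 in steatosis and 3.68 to 4.30 in NASH, whereas the Rbp4 to Ttr ratio overlapped between the groups.

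Within a group, the genes did not vary alike. Steatosis 1 was the highest steatosis library for 6 of the 9 genes (Retsat, Aldh1a1, Aldh1a7, Rbp4, Rdh16 and Rdh7) and the lowest for the other 3 (Lrat, Rdh10 and Dhrs3), for which steatosis 3 was the highest. NASH 1 was the lowest NASH library for 6 of the 9 and the highest for 0. These ranks also depend on how libraries are scaled. The matching shares over all genes were not computed, so nothing is read from these counts about the 9 genes. Coefficients of variation in NASH ran from 11.8% for Rdh7 to 24.5% for Dhrs3.

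Other genes of retinoid handling were taken from a list of 59 in 8 roles. Of these, 44 were tested, 6 fell, 2 rose and 36 did not pass, with a median log2 fold change of -0.23. Of them 13.6% were called lower against 3.33% of all tested genes, and 4.55% higher against 1.49%. The list was drawn up with earlier results of these data known, so nothing is read from these shares. Pnpla3, among those that rose, could be tested only if it was high in NASH. In the 4 libraries with few rRNA-like reads 1 was lower and 0 higher. The 8 called genes were in 3 roles: ester hydrolysis, dehydrogenases and retinoic acid response. Rbp2, Stra6, Crabp1, Crabp2, Rdh19 and Sdr16c5 had 0 counts in all libraries, and 9 more were below the filter.

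Of 9 genes of ester synthesis and hydrolysis 2 fell and 1 rose. The carboxylesterases Ces1d and Ces1e, the former known to hydrolyse retinyl esters, had log2 fold changes of -2.81 with SE 0.47 (edgeR, adjusted p = 0.0132) and -1.53 with SE 0.22 (edgeR, adjusted p = 0.00809). Ces1e had 55.5 ± 8.67 CPM in steatosis and 19.2 ± 3.04 CPM in NASH (SD, n = 3 each). Ces1d had 184 ± 52.9 CPM in steatosis and 26.4 ± 15.5 CPM in NASH (SD, n = 3 each), which did not pass once steatosis 1 was left out (edgeR, adjusted p = 0.0529), and reads of the Ces1 copies may be split between them. Pnpla3, a lipase that also acts on retinyl palmitate, stood higher on few reads, with 5 counts in the steatosis libraries together and 50 in those of NASH. Scaled for depth that is a ratio of 14.8 (exact 95% interval 5.95 to 47.7, counting error only). It passed the filter on low counts through the NASH libraries alone, with at most 4 counts in a steatosis library, so a gene like it could be tested only if it was high in NASH, and its rise is a description. Its edgeR call (adjusted p = 0.0164) was lost without steatosis 1, steatosis 2 or NASH 1 (0.0753, 0.0612 and 0.0593), and DESeq2 gave it no adjusted p. The lipases Pnpla2 (log2 fold change -1.17 with SE 0.45) and Lipc (-0.55 with SE 0.19) did not pass (edgeR, adjusted p = 0.151 and 0.117).

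Of 14 tested dehydrogenases and reductases outside the 9 genes 3 fell and 1 rose. The alcohol dehydrogenase Adh1, which oxidises retinol at high supply, fell from 452 ± 49.5 to 147 ± 23.4 CPM (SD, n = 3 each), a log2 fold change of -1.62 and SE of 0.24 (edgeR, adjusted p = 0.00876). Dhrs7 fell from 6.31 ± 1.34 to 1.31 ± 0.0352 CPM (SD, n = 3 each), a log2 fold change of -2.26 and SE of 0.26 (edgeR, adjusted p = 0.00337). Adh5, mainly a formaldehyde-clearing enzyme, fell by 0.86 on the log2 scale with SE 0.21 (edgeR, adjusted p = 0.0455). It did not pass without any 1 library other than steatosis 3 (edgeR, adjusted p = 0.079 to 0.149). Rdh11, a retinal reductase, rose from 1.29 ± 0.239 to 3.98 ± 1.01 CPM (SD, n = 3 each), a log2 fold change of 1.60 and SE of 0.29 (edgeR, adjusted p = 0.0179). Its call was lost without steatosis 1 or 2 or NASH 1 or 3 (edgeR, adjusted p = 0.0602, 0.072, 0.0601 and 0.0516). Adh4 (-0.13) and Hsd17b6 (-0.04), the most abundant of the uncalled, did not pass (edgeR, adjusted p = 0.736 and 0.968). Hsd17b6 stood at 0.10 when scaled without TMM, and at -0.72 without NASH 2.

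**Figure D3:**
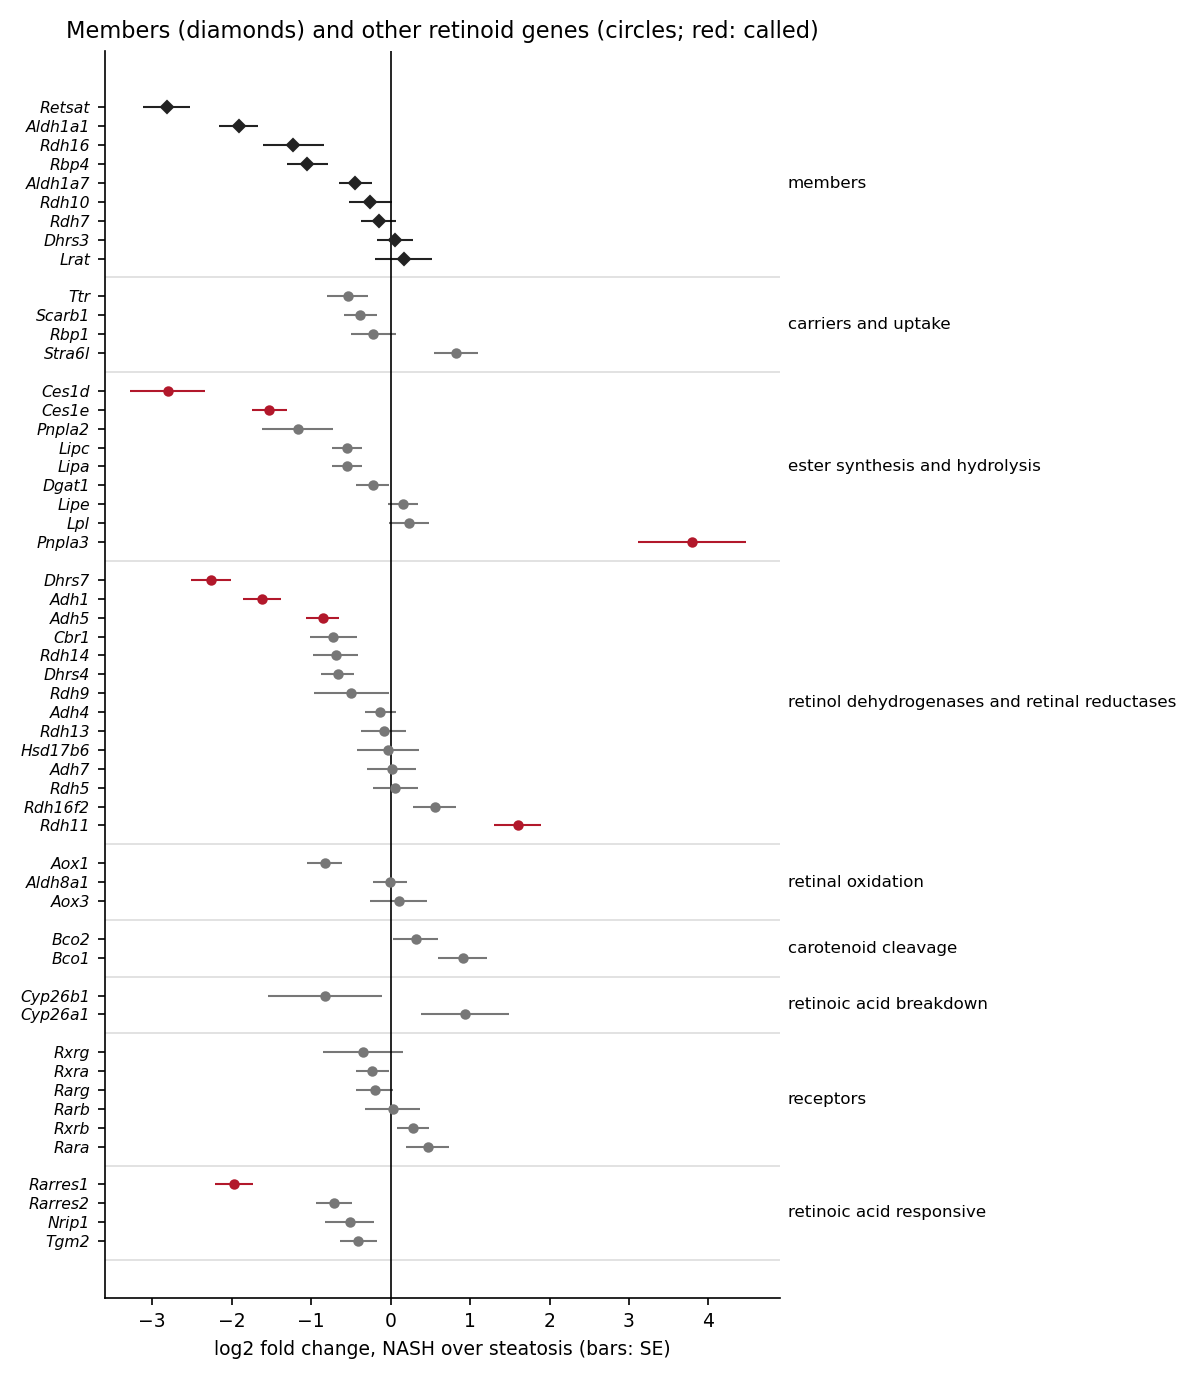
Log2 fold change, NASH over steatosis, with its SE, for the 9 genes (diamonds, given without a test) and the 44 other tested genes of retinoid handling by role (circles, red where called by edgeR). Ces1d, Dhrs7, Rarres1 and Adh1 are the called genes farthest below 0 and Pnpla3 and Rdh11 the called genes above 0, while the 6 receptors lie between -0.35 and 0.47.

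In the remaining roles Rarres1 alone was called by edgeR. Of 4 genes listed as responsive to retinoic acid, Rarres1 fell from 28.5 ± 6.14 to 7.27 ± 1.46 CPM (SD, n = 3 each), a log2 fold change of -1.97 and SE of 0.24 (edgeR, adjusted p = 0.00375). Rarres2, which encodes chemerin, and Tgm2, a transglutaminase, had log2 fold changes of -0.71 with SE 0.22 and -0.40 with SE 0.23 and did not pass (edgeR, adjusted p = 0.092 and 0.325). Without steatosis 3 Rarres2 was called (edgeR, adjusted p = 0.0382). Of 6 receptor genes 0 passed by edgeR (0 at an unadjusted p under 0.05, 0 by DESeq2 and 0 by limma-voom), with log2 fold changes from -0.35 to 0.47. Rxra, the most abundant, had 83.2 ± 5.67 CPM in steatosis and 71.0 ± 6.65 CPM in NASH, and Rara 10.8 ± 3.40 and 14.9 ± 3.58 CPM (SD, n = 3 each; edgeR, adjusted p = 0.547 and 0.33). Of retinoic acid breakdown genes, Cyp26a1 and Cyp26b1 rested on 3 to 108 counts per library and did not pass, with log2 fold changes of 0.94 (SE 0.55) and -0.82 (SE 0.72). Cyp26b1 stood at -2.20 without NASH 2 and at 0.08 without steatosis 3, and Cyp26a1 at 0.38 without NASH 2. Of the pair 0 passed at an unadjusted p under 0.05 or by DESeq2 or limma-voom (edgeR, adjusted p = 0.339 and 0.532). Stra6l, which takes up retinol from Rbp4 in liver, had 43.5 ± 15.4 CPM in steatosis and 77.1 ± 12.3 CPM in NASH (SD, n = 3 each), with all NASH libraries above all steatosis libraries. Its log2 fold change was 0.83 with SE 0.28 and did not pass (edgeR, adjusted p = 0.107), but it was called by DESeq2, and by edgeR without steatosis 3 (adjusted p = 0.0382). Neither carotenoid cleavage enzyme, Bco1 or Bco2, passed, with Bco1 at 0.91 and Bco2 at 0.32 on the log2 scale (edgeR, adjusted p = 0.111 and 0.548). Of other genes listed under retinal oxidation, Aldh8a1 and Aox3 had log2 fold changes of -0.01 (SE 0.21) and 0.10 (SE 0.36). Neither passed (edgeR, adjusted p = 0.979 and 0.904), and Aldh1a2 and Aldh1a3 had at most 4 counts in a library. Aox1, an aldehyde oxidase named after its value was seen, stood at -0.83 and was called by DESeq2 and limma-voom but not by edgeR.

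Hepatocytes differ along the liver lobule, from periportal to pericentral, and Aldh1a1 is known as a pericentral gene. Over all tested genes edgeR called 3.33% lower and 1.49% higher. Of 7 tested pericentral markers 3 fell (Cyp2e1, Cyp1a2 and Slc1a2, named after their values were seen) and 0 rose, with a median log2 fold change of -0.93. Their summed level was 2215 to 2646 CPM in steatosis and 893 to 1273 CPM in NASH, without overlap. Of 8 periportal markers 2 rose (Sds and Gls2) and 0 fell, with a median log2 fold change of 0.54. Their sums overlapped, at 492 to 1124 CPM in steatosis and 597 to 1087 CPM in NASH. Each sum leaned on its most abundant gene. For the pericentral markers this was Cyp2e1, with 1645 ± 153 CPM in steatosis and 735 ± 128 CPM in NASH (SD, n = 3 each). For the periportal markers it was Pck1, which varied widely, with 508 ± 244 and 391 ± 206 CPM (SD, n = 3 each). The overlap of the periportal sums therefore says little about the other periportal markers. The calls of Cyp2e1 and Cyp1a2 were lost without any 1 library other than steatosis 3 (edgeR, adjusted p = 0.0629 to 0.131 and 0.0584 to 0.116) and that of Slc1a2 without any 1 of the 6 (0.0613 to 0.137). Those of Sds and Gls2 were lost without any 1 library other than NASH 1 (0.0681 to 0.143 and 0.0534 to 0.108). By DESeq2 and by limma-voom 5 of the pericentral markers were called, and these tools called 551 and 369 genes lower in all. The part of zonation in the difference of Aldh1a1 or the other genes was not tested. Set against Aldh8a1, a further retinal dehydrogenase, the ratio of Aldh1a1 counts averaged 3.49 ± 0.487 over the steatosis libraries and 0.934 ± 0.255 over the NASH libraries (SD, n = 3 each).

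**Figure D4:**
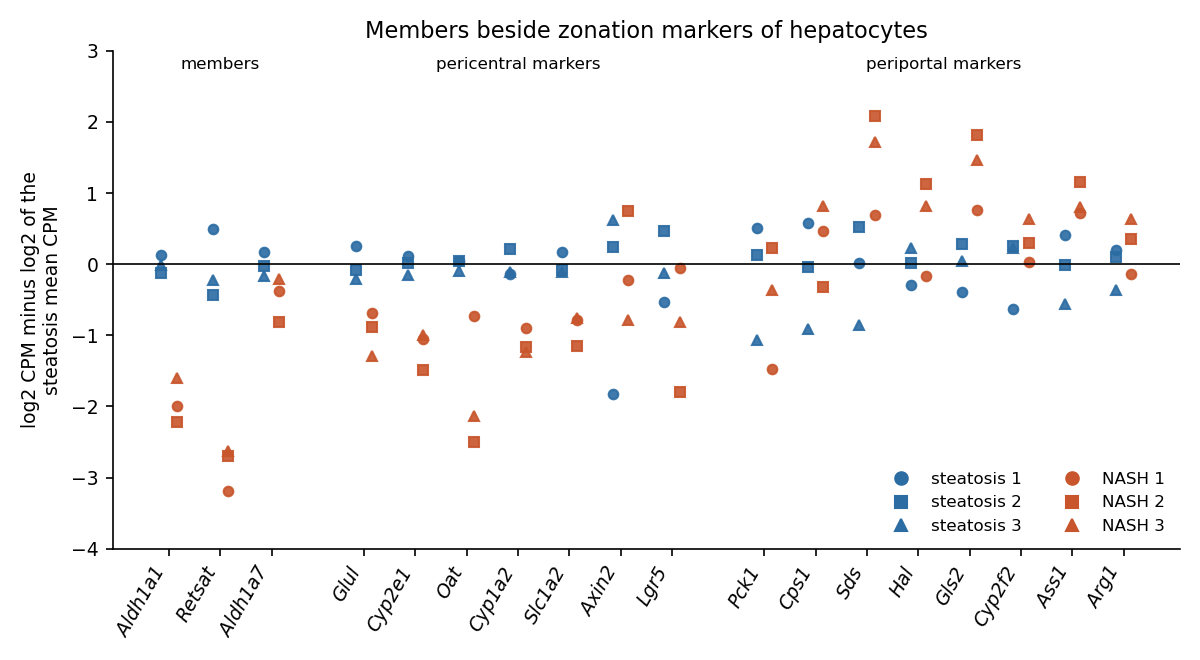
Level of Aldh1a1, Retsat and Aldh1a7 and of the tested pericentral and periportal marker genes in each library, as log2 CPM minus the log2 of the steatosis mean of that gene (steatosis in blue, NASH in orange, symbols for replicates). All NASH libraries lie below all steatosis libraries for Glul, Cyp2e1, Oat, Cyp1a2 and Slc1a2 but not for Axin2 and Lgr5. They do so for 16.2% of all tested genes.

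Across the 6 libraries the genes whose log2 CPM followed Retsat most closely, among 3427 named genes whose mean log2 CPM was 3 or more, were Pon1, Vnn1, Ephx1, Aldh2 and Eci1 (Pearson r 0.996, 0.995, 0.995, 0.993 and 0.993, n = 6). These r values are a description, since a gene that differs between the groups correlates with Retsat by that difference, and the points of all genes share the same libraries and their scaling. Pon1 encodes a plasma esterase, Vnn1 a pantetheinase, Ephx1 an epoxide hydrolase, Aldh2 the mitochondrial aldehyde dehydrogenase and Eci1 an auxiliary enzyme of fatty acid oxidation. Their log2 fold changes were -1.06, -1.38, -1.55, -0.63 and -1.42, smaller in size than the -2.82 of Retsat. Among the 9 genes, r with Retsat was 0.98 for Rbp4 and 0.97 for Aldh1a1 but -0.06 for Dhrs3 and -0.35 for Lrat.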

How the data were processed

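Polyadenylated RNA was sequenced as pairs of 150-base reads, per the labels' protocols. The submitters' processing notes name TopHat2, HTSeq and mm10 (GRCm38); not given in the sources used here are versions, annotation release, strand setting and handling of shared reads. Counts were deposited unnormalized, per Ensembl gene, in 1 file per library; 37607 of 39179 identifiers had a symbol.

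Counts were filtered with edgeR 4.0.16 (filterByExpr, 11375 genes kept) and scaled by TMM. The TMM factors were 0.964 to 1.50 in steatosis and 0.793 to 0.914 in NASH, without overlap. NASH over steatosis was tested with edgeR's quasi-likelihood test in R 4.3.3. Genes were called at a Benjamini-Hochberg adjusted p under 0.05 over all tested genes. The SE is the log2 fold change divided by the root of F. Exon lengths and positions are from GENCODE M21, promoters from RefSeq (GRCm38.p6). On simulated counts over 11085 genes for this comparison, 37% of 2-fold and 92% of 4-fold changes were recovered, the false share of calls was 7.19% and 0 calls had a wrong sign.

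The genes, lists and tests were chosen with earlier results of these data known. Named genes are the 9, called list members and the 2 most abundant uncalled of each role, called neighbours within 100 kb, and the 5 genes most like Retsat; others were named after their values were seen. Of the marker symbols 2 had no row. Alternatives were DESeq2 1.42.0, limma-voom (limma 3.58.1), other scalings and filters, a replicate block and each library left out. Intervals cover counting error only. One result among the genes most like Retsat within groups is not reported here.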

Additional observations from a re-analysis of the deposited data

How the results depend on the processing

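Against 169 higher and 379 lower calls over all tested genes, leaving out 1 library gave 29 to 170 higher and 77 to 298 lower, the 4 libraries with few rRNA-like reads (chosen after seeing the data) 17 and 19, no filter 535 and 912, and DESeq2 299 and 551. Library sizes taken from the other genes, with no TMM, shifted the all-gene median (log2) from 0.01 to 0.12 and gave 178 higher and 222 lower, so 55.5% of calls were lower against 69.2%; on that scale Retsat, Aldh1a1 and Rbp4 stood at -2.69, -1.81 and -0.92. The Rbp4 call was lost there, with DESeq2 size factors and in 10 of the 14 alternatives in all. Of the 9 genes, 2 to 4 were called lower and 0 higher under each of the 14 alternatives. Of the other retinoid genes, 4 to 7 were lower and 0 to 3 higher with 1 library left out, 1 and 0 in the 4 libraries, 11 lower with no filter, and 1 higher where a CPM of at least 1 in 3 libraries was required, a filter Pnpla3 did not pass. The cause of these differences was not tested; fewer libraries lower the power by construction.

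Replicate numbers are shared by the groups but name nothing else. Deviations of same-numbered libraries from their group means correlated at 0.03, -0.01 and 0.07, and steatosis 1 correlated best with NASH 2 (0.07). With the replicate number as a block, 153 genes were higher and 313 lower, 2 of the 9 genes were called (not Rbp4), and 5 other retinoid genes were lower and 2 higher.

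Single hexamers in place of direct repeats matched 7 windows in place of 0. By deviations from the group means, 0 of the 5 genes most like Retsat were kept; with no minimum level all 5 were. Few counts limit the precision of Lrat, Pnpla3 and Cyp26a1, among others.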

Other observations

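With the group means removed, r with Retsat ran from -0.13 to 0.88 among the other 8 genes. Retsat stood highest in steatosis 1 (95.5 CPM, against 50.2 and 58.1 CPM in steatosis 2 and 3). So few deviations, with 1 library leading, cannot separate genes that vary with Retsat from those that do not. Over the 6 libraries Pearson's r of the deviations with those of Retsat, a description with no test, was 0.88 for Rbp4, 0.81 for Rdh7 and 0.64 for Rdh16 but 0.43 for Aldh1a1, 0.27 for Aldh1a7, 0.05 for Dhrs3, -0.10 for Lrat and -0.13 for Rdh10. Pnpla2, the adipose triglyceride lipase, also had its highest level in steatosis 1 (85.8 CPM, against 31.0 and 19.7 CPM in steatosis 2 and 3), and its log2 fold change was -0.31 without that library against -1.17 with it.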
